A study of Oryza sativa Indica Group with 24 samples.

Results

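The genes described here changed sides between 2 rice cultivars as the grain developed: they were higher in RD57 than in RD6 at 7 days post-anthesis (DPA) and higher in RD6 than in RD57 at 28 DPA. They were selected on those measured values. For each gene, d was the mean log2(FPKM + 0.5) of the 3 RD57 libraries minus that of the 3 RD6 libraries at the same DPA, where FPKM is fragments scaled to transcript length and library size. A gene could be chosen if it was above 0 in all 24 libraries and its largest group mean was under 500 FPKM, which held for 14790 of the 26362 genes in the table. Of these, 297 had d of at least 0.5 at 7 DPA and at most -0.5 at 28 DPA. The 100 with the highest score, the smaller of d at 7 DPA and minus d at 28 DPA, are the members. Because 7 and 28 DPA chose the members, values at those DPA are given as a description with no test. Tests were made at 14 and 21 DPA, whose d entered neither the thresholds nor the score. Values at 14 and 21 DPA did enter the filters, above 0 in all 24 libraries and under 500 FPKM. Each test also took its error from all 24 libraries, among them those at 7 and 28 DPA. Counts of members that passed a test are therefore not fully independent of the choice.

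RD6 is a waxy indica cultivar and RD57 a high-amylose indica cultivar. Plants of both were grown in pots in a net house under natural light, with no treatment, and grains were taken at 7, 14, 21 and 28 DPA. Each of the 8 groups had 3 biological replicates, which makes 24 libraries in all. Every group is 1 cultivar at 1 DPA, so a difference between groups holds for these cultivars under this single growth condition. The labels call the tissue endosperm, and the protocol extracts RNA from rice grains. The table lists genes by assembly identifiers without names, so no marker of endosperm, embryo or maternal tissue was looked up and the labelled tissue was not checked.

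The developing rice grain passes from cellularisation of the endosperm, through a filling phase in which starch and storage proteins are laid down, to drying and maturation. Transcripts of many genes rise and fall with these phases. Amylose is made by granule-bound starch synthase, and waxy cultivars lack most of this activity in the endosperm. No member was given a name or function here. In bulk grain RNA, fewer cells of a type and less RNA per cell cannot be told apart.

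Library quality was read from the FPKM values, since the table gives no read counts for a gene. The study reports aligned reads for each library, and these were not used here. Correlation of log2 values between replicates over genes was 0.947 to 0.976 in 7 of the groups. In RD6 at 28 DPA the lowest was 0.914, and this came with replicate 3 standing apart in the members. The median FPKM over the members in RD6 at 28 DPA was 3.68, 4.23 and 11.9 in replicates 1, 2 and 3. Over the 14790 genes that could be chosen, the same libraries had medians of 10.1, 10.1 and 10.8 FPKM. Replicate 3 was the highest of its group for 71 of the 100 members, against 42.3% of genes that could be chosen. In 33 members it was at least 2 times each other replicate, against 4.67%. The choice used these libraries and favours high RD6 values at 28 DPA, so the counts of 71 and 33 are not independent of it. With RD6 replicate 3 left out, the median d at 28 DPA over the members went from -1.09 to -0.86. Of the members, 81 stayed at or below -0.5 and 92 stayed below 0.

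At 7 DPA, RD57 replicate 1 stood below the other RD57 libraries. The median FPKM over the members was 13.3 in this library and 31.2 and 25.7 in replicates 2 and 3. All 3 lay above the RD6 libraries, at 9.86, 7.87 and 6.84. Replicate 1 was the lowest of its group for 63 members, against 35.0% of genes that could be chosen. The choice used these libraries too, so the medians and the count are not independent of it. Without replicate 1 the median d at 7 DPA went from 1.10 to 1.31, and 97 members stayed at or above 0.5.

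Most members were highest at 14 DPA, a peak read in part from the 7 and 28 DPA values that chose them. By the group mean on the log2 scale, RD57 peaked at 14 DPA in 63 members, at 7 DPA in 30, at 21 DPA in 7 and at 28 DPA in 0. RD6 peaked at 14 DPA in 65 members, at 7 DPA in 10, at 21 DPA in 8 and at 28 DPA in 17. Both cultivars peaked at 14 DPA in 55 members, compared with 16.7% of genes that could be chosen. The peak came earlier in RD57 than in RD6 for 34 members, at the same DPA for 66 and later for 0. Among genes that could be chosen these shares were 19.1%, 65.1% and 15.8%. The choice sets RD6 below RD57 at 7 DPA and RD57 below RD6 at 28 DPA, so none of these counts is independent of it. A later peak in RD57, with a count of 0, is hard to combine with those signs.

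The median group mean of the members in RD57, in order of DPA, was 24.4, 37.8, 10.6 and 1.90 FPKM. The matching values in RD6 were 9.30, 29.7, 14.6 and 7.09 FPKM. The cultivars were thus closest at 14 DPA, RD57 started from the higher level, and it ended at the lower one. From 7 to 28 DPA the median change was -3.07 on the log2 scale in RD57 and -0.50 in RD6. In RD57 28 DPA was the lowest DPA for 85 members, and in RD6 for 50, against 27.9% and 28.5% of genes that could be chosen. At 28 DPA, the RD57 mean was under 2 FPKM for 53 members and under 1 FPKM for 23, against 11.7% and 2.95%. In RD6 the mean was under 1 FPKM for 0 members. The choice sets RD57 below RD6 at 28 DPA, so these counts are not independent of it. The smallest value above 0 in the table was 0.50 FPKM, so RD57 values of these genes at 28 DPA lay close to the floor of the measurement, where the log2(FPKM + 0.5) scale understates a change.

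**Figure D1:**
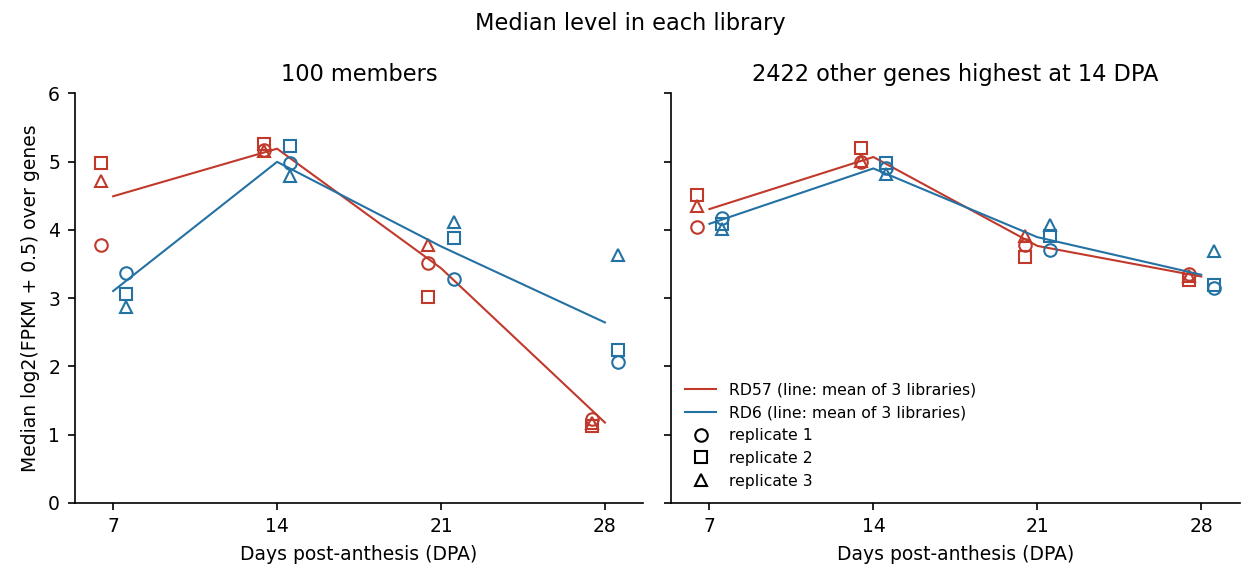
Median log2(FPKM + 0.5) of each library over the 100 members (left) and over 2422 other genes that peak at 14 DPA for both cultivars (right), against DPA. Points are libraries and lines join the means of 3 libraries. In the members, RD57 lies above RD6 at 7 DPA and below it at 28 DPA, where RD6 replicate 3 (3.63) sits above replicates 1 and 2 (2.06 and 2.24). The choice sets the sides at 7 and 28 DPA in the left panel but not in the right one, where RD6 replicate 3 (3.70) is again the highest RD6 library at 28 DPA.

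The library medians at 28 DPA were also read in genes that were not chosen. Over the 2422 other genes with a 14 DPA peak in both cultivars, the library medians at 28 DPA were 3.35, 3.27 and 3.33 in RD57 and 3.15, 3.19 and 3.70 in RD6, as log2(FPKM + 0.5). Replicates 1 and 2 of RD6 thus lay below all RD57 libraries, and replicate 3 lay above them. In the members the corresponding medians were 1.23, 1.13 and 1.17 in RD57 and 2.06, 2.24 and 3.63 in RD6. RD6 above RD57 at 28 DPA is set by the choice in the members, so nothing is read from the contrast with the other genes. The member median of RD6 replicate 3 at 28 DPA lay within the range of the RD6 libraries at 21 DPA, which was 3.28 to 4.11. Over the 2422 other genes its median of 3.70 lay just below the RD6 range at 21 DPA, which was 3.71 to 4.07. The part of this library's state in the members' values at 28 DPA was not tested beyond leaving it out.

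Most members fell from 7 to 28 DPA in both cultivars, and RD57 fell further, as the choice requires. A fall in both was seen in 59 members, against 43.6% of genes that could be chosen. Their median group means at 7 DPA were 45.1 FPKM in RD57 and 18.5 in RD6, and at 28 DPA 1.46 and 5.77. For 35 members RD57 fell while RD6 rose, against 6.23%, and the median means went from 10.7 to 2.17 FPKM in RD57 and from 3.94 to 8.65 in RD6. In the remaining 6 members both cultivars rose, with medians from 4.14 to 13.6 FPKM in RD57 and from 1.34 to 21.5 in RD6. The combination of a rise in RD57 and a fall in RD6 is barred by the choice. All these counts come from the 7 and 28 DPA values that chose the members, so nothing is read from the shares beside them.

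The 55 members with a 14 DPA peak in both cultivars were the more abundant ones. Their median group mean at 14 DPA was 101.9 FPKM in RD57 and 88.3 in RD6, and their median d in order of DPA was 1.10, 0.35, -0.61 and -1.31. The 10 members that peaked at 7 DPA in RD57 and at 14 DPA in RD6 went from 43.3 to 24.96 FPKM between those DPA in RD57 and from 13.0 to 22.3 in RD6, as medians. Another 10 peaked at 7 DPA in both, with medians there of 54.6 and 25.2 FPKM. Of the 17 members with a 28 DPA peak in RD6, 8 peaked at 7 DPA in RD57, with median means at 28 DPA of 1.67 FPKM in RD57 and 4.72 in RD6. By abundance, 34 members had a largest group mean of 100 FPKM or more, against 11.6% of genes that could be chosen, and 29 of those 34 had the shared 14 DPA peak.

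The difference between cultivars ranged widely within the thresholds. At 7 DPA, d ran from 0.76 to 2.32 with a median of 1.10, a 2.14-fold higher level in RD57. At 28 DPA it ran from -3.13 to -0.76 with a median of -1.09, a 2.13-fold higher level in RD6. Over the genes that could be chosen the medians were -0.01 and 0.02. All 3 RD57 libraries lay above all 3 RD6 libraries at 7 DPA for 66 members, where the share of genes that could be chosen was 14.2%. At 28 DPA all 3 RD6 libraries lay above all 3 RD57 libraries for 47 members, where the share was 11.5%. These counts were fixed in part by the choice, so nothing is read from them. The last member in had d of 0.757 at 7 DPA and -0.759 at 28 DPA. The first gene left out had 0.751 and -1.23, so no gap separates members from the next genes.

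Replicates of the members varied more than those of other genes. The median SD of log2(FPKM + 0.5) over 3 libraries was 0.81 in the members in RD6 at 28 DPA, against 0.25 over genes that could be chosen. In RD57 at 7 DPA it was 0.50 against 0.25. In the other groups the members' median SD was 0.29 to 0.50, against 0.18 to 0.26. A choice of extreme differences between means of 3 libraries favours variable genes, so the SDs at 7 and 28 DPA are not independent of it. The authors filled a missing replicate with the average of the others, and such values can be seen as 1 replicate equal to the mean of the other 2. At least 1 such value was present in 33 members, against 9.20% of genes that could be chosen. At 28 DPA 18 members had one in RD57, against 2.70%, and in RD6 15 had one, against 1.93%. The 67 members with no such value had a median d of 1.16 at 7 DPA and -1.005 at 28 DPA.

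A choice made with 1 library left out gave a list whose values could be read in the library that was not used. With RD57 replicate 1 at 7 DPA left out, the median d of the new list was 1.25 in the libraries used and 0.34 in that library, where 61 of 100 genes kept the sign. For the other libraries at 7 DPA, the median d of the left-out library was 0.80 to 1.28, with 91 to 98 genes of the same sign. At 28 DPA it was -1.07 to -0.66, with 79 to 93 genes of the same sign. When RD6 replicate 3 at 28 DPA was left out, the new list had a median d of -0.96 in the libraries used and -0.92 in that library. In each case d was still taken against the 3 libraries of the other cultivar, which the new choice had used, so the sign counts are partly fixed by the choice. They are given as a description, in which RD57 replicate 1 had the lowest count.

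**Figure D2:**
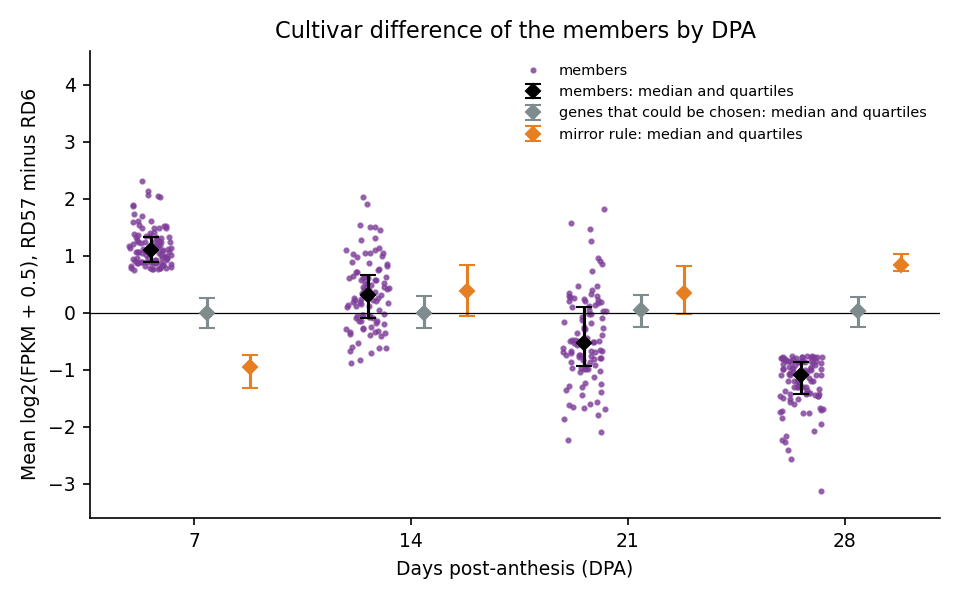
Difference between cultivars, as mean log2(FPKM + 0.5) of RD57 minus RD6, against DPA. Dots are the 100 members, and diamonds with bars are medians with quartiles for the members (black), the 14790 genes that could be chosen (grey) and the 100 genes chosen by the reverse rule (orange). The member median goes from 1.10 through 0.31 and -0.52 to -1.09, with 7 and 28 DPA set by the choice.

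The first question open to a test was on which side of the cultivars the members stood at 14 DPA. Their median d was 0.31, a 1.24-fold higher level in RD57, with a range from -0.87 to 2.04, and d was above 0 in 67 members, against 50.4% of genes that could be chosen. By limma with Benjamini-Hochberg adjustment over all 26362 genes, 12 members were upregulated in RD57 at 14 DPA (adjusted p of at most 0.05) and 0 were lower. The background shares for higher were 15.1% of all genes and 8.26% of genes that could be chosen, and for lower 13.0% and 7.77%. The count of 12 is thus close to the background, and a list chosen again without RD57 replicate 1 at 7 DPA had 6. Chosen again without RD6 replicate 3 at 28 DPA, a list had 3 genes lower in RD57 at 14 DPA. The count at an unadjusted p under 0.05 for lower in RD57 was 1, and leaving out RD6 replicate 1 at 14 DPA gave 1 call. The 12 members had Log2FC from 0.82 to 2.04 with a median of 1.38. All 3 RD57 libraries lay above all 3 RD6 libraries for 25 members, where the background was 14.5%.

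At 21 DPA the members stood on the other side on balance. Their median d was -0.52, a 1.44-fold higher level in RD6, with a range from -2.23 to 1.82, and d was below 0 in 71 members, against 45.2% of genes that could be chosen. By the same test 12 members were lower in RD57, against backgrounds of 15.5% of all genes and 7.09% of genes that could be chosen. Another 4 were higher in RD57, against 13.6% and 10.3%. The 12 lower members had Log2FC from -2.23 to -0.86 with a median of -1.61, and the 4 higher members from 0.86 to 1.82. Without RD6 replicate 3 at 21 DPA the count of lower members was 7, and without RD57 replicate 1 at 21 DPA the count of higher members was 1. That count was 2 without RD57 replicate 3, RD6 replicate 1 or RD6 replicate 2 at 21 DPA. Background shares were not counted in these fits with a library left out. All 3 RD6 libraries lay above all 3 RD57 libraries for 21 members, where the background was 14.3%. An absolute Log2FC of at least 2, the stricter rule of the study, was also met by 1 member higher at 14 DPA and 2 members lower at 21 DPA. The backgrounds under that rule were 0.338% and 0.453% of genes that could be chosen.

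Members passed the test at 1 of these DPA but not on opposite sides at both. The number higher in RD57 at 14 DPA and lower at 21 DPA was 0, while 2 members were higher at both, and 74 members passed at neither. A non-significant value does not show that a gene was equal in the cultivars. By sign alone, 45 members had d above 0 at 14 DPA and below 0 at 21 DPA, against 20.4% of genes that could be chosen. A further 26 were already below 0 at 14 DPA and stayed there, 22 were above 0 at both, and 7 went from below to above, against 24.8%, 30.1% and 24.7%. In 64 members d fell at every step from 7 to 28 DPA, against 5.25%, and the ends of that course were set by the choice.

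**Figure D3:**
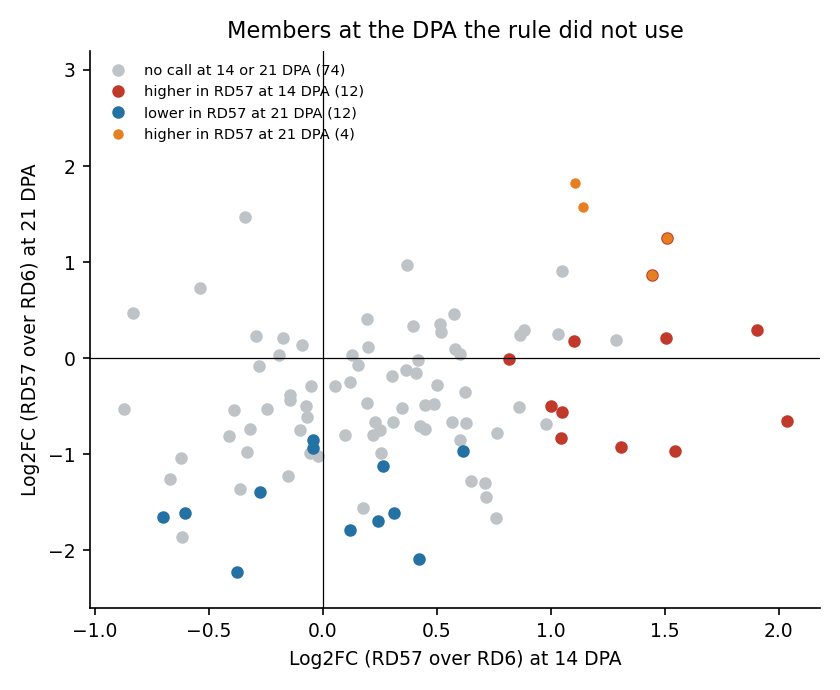
Log2FC of RD57 over RD6 at 21 DPA (vertical) against that at 14 DPA (horizontal) for the 100 members. Colours mark limma calls at an adjusted p of at most 0.05: 12 higher in RD57 at 14 DPA (red), 12 lower at 21 DPA (blue), 4 higher at 21 DPA (orange, 2 of them over red) and 74 with no call (grey).

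From 14 to 21 DPA most members fell in RD57, and fewer did in RD6. In RD57, 71 members fell by the limma test, against 35.3% of all genes and 32.1% of genes that could be chosen. Only 3 rose, against 27.7% and 32.1%. In RD6, 49 fell, against 31.3% and 31.0%, and 8 rose, against 25.4% and 27.5%. The 3 became 1 without RD57 replicate 3 at 14 DPA, and the 8 became 5 without RD6 replicate 1 at 14 or at 21 DPA. In the list chosen again without RD6 replicate 3 at 28 DPA, 9 genes rose in RD57 and 17 in RD6. The median change was -1.90 on the log2 scale in RD57 and -1.12 in RD6. The medians over genes that could be chosen were 0.00 and -0.06. Both cultivars passed for a fall in 46 members, RD57 alone in 25 and RD6 alone in 3. Passing in 1 cultivar alone does not show that the changes differ.

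The difference between the changes was tested directly. For 12 members the change from 14 to 21 DPA was lower in RD57 than in RD6, against 16.1% of all genes and 5.52% of genes that could be chosen. For 0 members it was higher in RD57, against 12.2% and 6.72%, and 1 member had an unadjusted p under 0.05 in that direction. The 12 members had a median change of -2.45 in RD57 and -0.61 in RD6. When the model was fitted only to genes above 0 in all 24 libraries, 7 members passed instead of 12. The background share in that fit was not counted, so the 7 cannot be set against it. These contrasts share their libraries with the cultivar comparisons at 14 and 21 DPA, so they are not separate evidence.

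XLOC_009389 had the largest Log2FC of the members at 14 DPA and was a low gene whose cultivars moved in opposite directions. Its FPKM in RD57 replicates 1, 2 and 3 was 3.36, 4.26 and 3.39 at 7 DPA and 2.79, 5.11 and 5.52 at 14 DPA. At 21 DPA it was 1.23, 0.99 and 1.35, and at 28 DPA 1.12, 1.23 and 0.58. All 6 early RD57 libraries were thus above all 6 late ones. In RD6 the values were 0.72, 0.79 and 1.12 (7 DPA) and 0.69, 0.81 and 0.53 (14 DPA), then 3.26, 1.54 and 1.91 (21 DPA) and 2.86, 3.45 and 2.79 (28 DPA). The cultivars did not overlap at any DPA. RD6 at 14 DPA lay near the floor of 0.50 FPKM. There the log2(FPKM + 0.5) scale understates both a change and the spread of replicates. Log2FC at 14 DPA was 2.04 (SE 0.25, adjusted p = 1.17e-06, limma). At 21 DPA it was -0.65 (SE 0.25, adjusted p = 0.0563), which missed the threshold. From 14 to 21 DPA the gene fell by 1.51 on the log2 scale in RD57 (adjusted p = 2.42e-05, limma) and rose by 1.17 in RD6 (adjusted p = 0.000451, limma). The difference between these changes was -2.69 (SE 0.35, adjusted p = 4.16e-06, limma).

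XLOC_031142 had the highest score and was an abundant gene that peaked at 14 DPA in RD57 and in RD6. In RD57 its FPKM was 58.5, 132.7 and 106.5 (7 DPA), 309.3, 437.6 and 343.5 (14 DPA), 66.3, 43.8 and 91.2 (21 DPA), and 0.88, 0.69 and 1.83 (28 DPA). In RD6 it was 28.5, 25.5 and 21.0 (7 DPA), 105.4, 101.9 and 81.3 (14 DPA), 40.4, 69.4 and 50.7 (21 DPA), and 2.39, 2.05 and 19.7 (28 DPA). The cultivars overlapped only at 21 DPA, and RD6 replicate 3 at 28 DPA was far above the other RD6 libraries. Log2FC at 14 DPA was 1.91 (SE 0.54, adjusted p = 0.0101, limma), and at 21 DPA it was 0.30 (SE 0.54, adjusted p = 0.834). The fall from 14 to 21 DPA was -2.48 in RD57 (adjusted p = 0.000469, limma), and the change in RD6 was -0.87 (adjusted p = 0.188). The difference between them was -1.61 (SE 0.76, adjusted p = 0.131), which did not pass.

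XLOC_026700 had the most negative Log2FC of the members at 21 DPA. In RD57 its FPKM was 4.74, 66.0 and 43.3 (7 DPA), 197.5, 137.6 and 132.5 (14 DPA), 1.19, 1.13 and 1.16 (21 DPA), and 0.51, 0.76 and 3.10 (28 DPA). In RD6 it was 38.7, 7.33 and 3.2996 (7 DPA), 192.0, 217.7 and 188.4 (14 DPA), 5.52, 8.82 and 7.89 (21 DPA), and 15.6, 5.99 and 29.1 (28 DPA). Replicates spanned more than 10-fold in both cultivars at 7 DPA, and the cultivars overlapped there and at 14 DPA. They were apart at 21 and 28 DPA, with RD6 higher. Log2FC at 14 DPA was -0.38 (adjusted p = 0.884, limma) and at 21 DPA -2.23 (SE 0.81, adjusted p = 0.0461, limma). Replicate 3 of RD57 at 21 DPA equals the mean of the other 2 and was filled. With filled values set to missing the adjusted p was 0.0896 (limma). Leaving out any 1 library at 21 DPA gave 0.0610 to 0.122, so the call did not hold. The fall from 14 to 21 DPA was -6.53 in RD57 and -4.68 in RD6 (adjusted p = 8.66e-07 and 6.13e-05, limma), and their difference of -1.85 did not pass (adjusted p = 0.265). The member ranked 3 by score carries the identifier number directly before this one. Across the 24 libraries the median gap between the pair was 0.20 on the log2 scale. Whether they share reads was not tested.

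XLOC_023460 came next at 21 DPA. In RD57 its FPKM was 10.8, 13.4 and 14.1 (7 DPA), 45.7, 35.9 and 28.2 (14 DPA), 2.96, 1.87 and 13.0 (21 DPA), and 0.62, 0.61 and 0.63 (28 DPA). In RD6 it was 7.80, 5.83 and 6.90 (7 DPA), 23.9, 19.4 and 40.7 (14 DPA), 10.8, 17.8 and 41.2 (21 DPA), and 2.34, 2.11 and 2.57 (28 DPA). The cultivars were apart at 7 and 28 DPA and overlapped at 14 and 21 DPA. At 21 DPA RD57 replicate 3 lay above RD6 replicate 1. In each cultivar replicate 1 at 28 DPA equals the mean of the other 2 and was filled. Log2FC was 0.42 at 14 DPA (adjusted p = 0.635, limma) and -2.09 at 21 DPA (SE 0.48, adjusted p = 0.00186, limma). From 14 to 21 DPA the gene fell by 2.92 in RD57 (adjusted p = 2.52e-05, limma), and the change in RD6 was -0.40 (adjusted p = 0.542). The difference between the changes was -2.52 (SE 0.68, adjusted p = 0.00784, limma). In a fit of the 12 libraries at 14 and 21 DPA alone it did not pass (adjusted p = 0.0826).

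**Figure D4:**
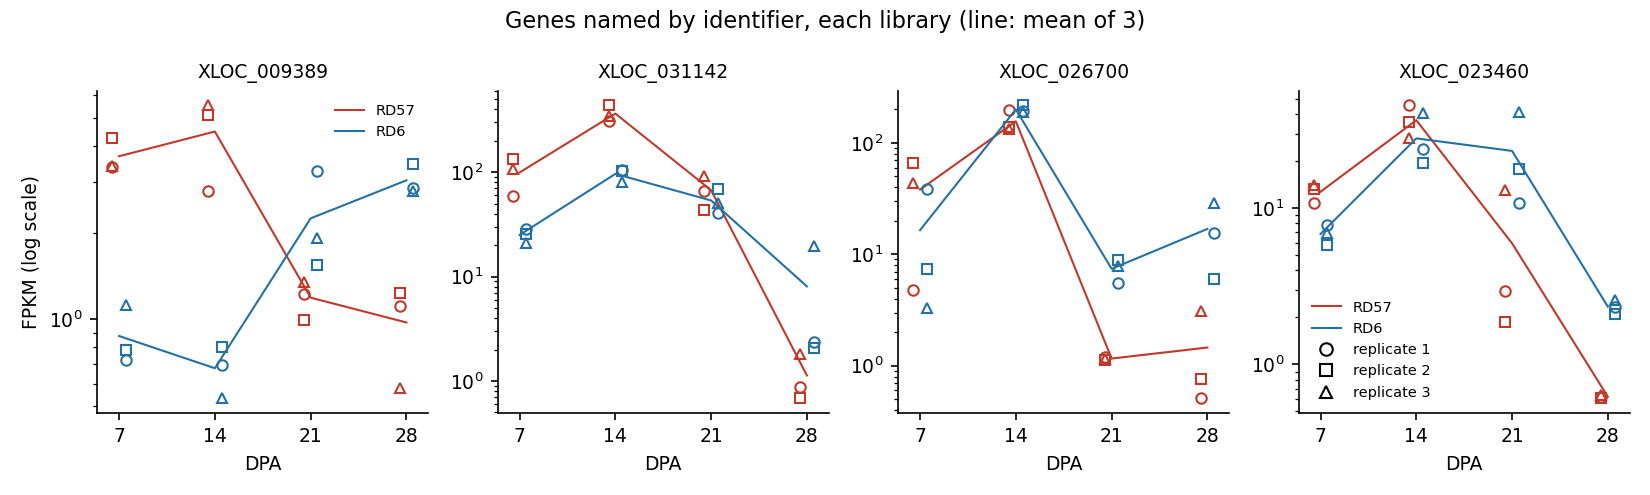
FPKM on a log axis against DPA for the 4 genes given by identifier, with a separate axis for each gene. Points are libraries, lines join the means of 3 libraries, RD57 is red and RD6 blue. XLOC_009389 crosses between 14 and 21 DPA, and the others peak at 14 DPA in both cultivars.

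The member ranked 2 by score peaked at 14 DPA in RD57 and at 21 DPA in RD6 on the log2 scale. In RD57 its FPKM was 12.8, 58.5 and 40.3 (7 DPA), 159.8, 111.2 and 124.9 (14 DPA), 152.2, 48.1 and 226.1 (21 DPA), and 2.32, 8.69 and 2.87 (28 DPA). In RD6 it was 11.8, 9.43 and 9.94 (7 DPA), 55.6, 77.9 and 83.9 (14 DPA), 57.9, 126.0 and 138.8 (21 DPA), and 6.75, 6.27 and 41.4 (28 DPA). The cultivars were apart at 7 and 14 DPA and overlapped at 21 and 28 DPA, where RD6 replicate 3 was again the highest.

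The opposite choice served as a comparison: d of at most -0.5 at 7 DPA and at least 0.5 at 28 DPA, with the 100 highest scores kept of 173 genes that passed. Only 4 of these peaked at 14 DPA in both cultivars and 22 peaked at 28 DPA in both. Their median d at 14 and 21 DPA was 0.38 and 0.35, so they had already changed sides by 14 DPA on balance, whereas the members did so between 14 and 21 DPA. At 14 DPA d was above 0 in 74 of them, against 67 members and 50.4% of genes that could be chosen. All 3 RD57 libraries lay above all 3 RD6 libraries there for 24, against 25 members and 14.5%. A higher level in RD57 at 14 DPA was thus not particular to the members. By the limma test at 14 DPA, 19 of them were higher in RD57 and 7 lower, where the shares of genes that could be chosen were 8.26% and 7.77%. At 21 DPA 29 were higher and 1 lower, against 10.3% and 7.09%. From 14 to 21 DPA 42 rose and 15 fell in RD57, where both shares were 32.1%. In RD6 38 rose and 12 fell, against 27.5% and 31.0%. These are counts side by side, and the lists were not tested against each other.

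The 197 genes that passed both thresholds but scored below the members were described in the same way. Their median d at 14 and 21 DPA was 0.07 and -0.32. Of these genes, 78 (39.6%) had a 14 DPA peak in both cultivars, as did 55 of the 100 members. From 14 to 21 DPA 123 fell in RD57 and 95 in RD6, and 19 and 22 rose. The shares of genes that could be chosen were 32.1% and 31.0% for a fall and 32.1% and 27.5% for a rise. At 14 DPA 13 of the 197 were higher in RD57 and 5 lower, where the shares were 8.26% and 7.77%. At 21 DPA 3 were higher and 19 lower, where the shares were 10.3% and 7.09%. The counts at 14 DPA were thus below the background.

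The size of the difference at 28 DPA depended on RD6 replicate 3 more for some members than for others. With it left out, 19 members rose above the threshold of -0.5, with a median d of -0.07 and a range from -0.49 to 0.36. Of these 19, 17 had a 14 DPA peak in both cultivars. The other 81 had a median d of -0.96 without that library, and 38 of them had that peak.

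**Figure D5:**
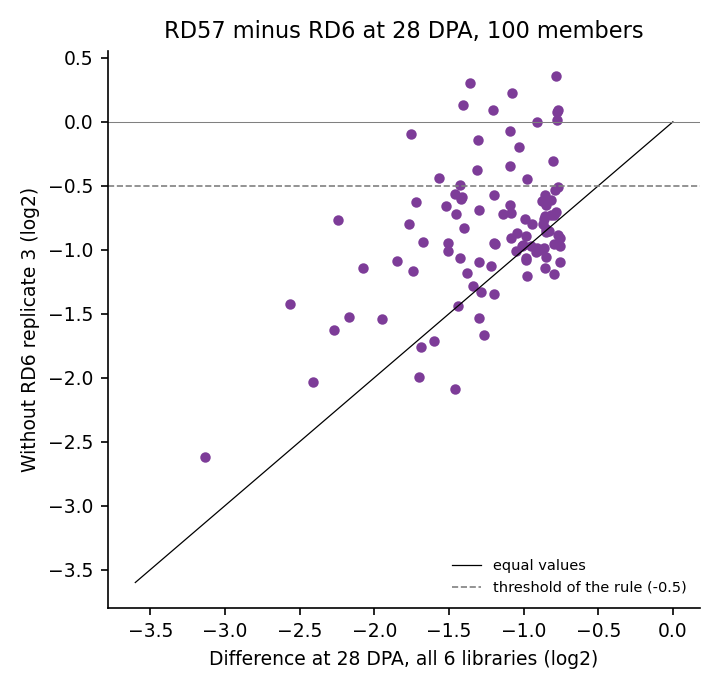
Difference at 28 DPA (mean log2(FPKM + 0.5), RD57 minus RD6) without RD6 replicate 3 (vertical) against the difference with all 6 libraries (horizontal) for the 100 members. The solid line marks equal values and the dashed line the threshold of -0.5: 81 members stay at or below it and 19 lie above it.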

How the data were processed

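Developing grains of RD6 and RD57 were sequenced at 4 DPA with 3 biological replicates each. The authors aligned reads with HISAT2, assembled transcripts with Cufflinks and deposited gene-level FPKM from Cuffnorm, after excluding values below 0.5 FPKM and averaging replicates to fill missing values. All 24 columns were matched to samples by name, and 0 were left without one. Values were taken as log2(FPKM + 0.5), a scale that understates changes of low genes. limma 3.58.1 in R 4.3.3 fitted 8 group means to 24 libraries, with a trended prior and Benjamini-Hochberg adjustment over 26362 genes. The count model of the study was not applied to FPKM. The fit was tested on simulated data. Up to 4 identifiers were named: the 2 members with the largest positive Log2FC at 14 DPA and the 2 with the most negative at 21 DPA, among those with an adjusted p of at most 0.05. Members and lists were chosen with earlier results of these data known. The identifiers matched 0 entries of the gene table for Japonica assembly ASM3414082v1, so no names, markers or sequences were used. The reads behind each FPKM value are not given and precision rests on the replicates. Alternatives covered pseudocount, scaling, filters, filled values, the replicate block and leaving out libraries. Figures used Python 3.11.15, pandas 2.3.3, numpy 2.4.6 and matplotlib 3.10.9.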

Additional observations from a re-analysis of the deposited data

Results flagged for a closer look

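The change from 14 to 21 DPA differed between cultivars, by limma's test of the difference itself, for 12 members in which the RD57 change was below the RD6 change, and for 0 members in the other direction. The background was 5.52% and 6.72% of genes that could be chosen, and 16.1% and 12.2% of all genes. The 12 of 100 thus lies above the share of genes that could be chosen. It lies below the share over all genes, which counts genes that could not be members. When only genes above 0 in all 24 libraries were fitted, 7 members passed instead of 12, and the background share in that fit was not counted. Among the genes given by identifier, the RD57 change minus the RD6 change was -2.69 on the log2 scale for XLOC_009389 and -2.52 for XLOC_023460. For XLOC_009389 RD57 fell and RD6 rose, each past the threshold. For XLOC_023460 RD57 fell and the RD6 change was -0.40, with 3 libraries in each group, and its difference did not pass in a fit of the 12 libraries at 14 and 21 DPA alone (adjusted p = 0.0826, limma).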

How the results depend on the processing

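The choice of members depended on single libraries: 67 of the 100 were kept among the 100 highest without RD6 replicate 3 at 28 DPA, 68 without RD57 replicate 1 at 7 DPA, and 79 to 87 without any other library. With a pseudocount of 0.1 or 1, 91 and 90 were kept, with library medians equalised 98, with quantile normalization 87, and with no upper limit on the group mean 74. In lists chosen again without RD6 replicate 3 at 28 DPA, an alternative chosen after seeing the data, 3 genes were lower in RD57 at 14 DPA, 9 rose in RD57 and 17 in RD6 from 14 to 21 DPA, and for 2 the RD57 change was the higher. Chosen again without RD57 replicate 1 at 7 DPA, 6 were higher in RD57 at 14 DPA, 1 was higher at 21 DPA and 1 rose in RD57. Fitting only genes above 0 in all 24 libraries gave 7 members with a lower change in RD57. Leaving out 1 library at 14 or 21 DPA gave 1 to 4 members higher at 21 DPA, 7 to 17 lower at 21 DPA, 0 to 1 lower at 14 DPA, 1 to 3 rising in RD57, 5 to 9 rising in RD6 and 0 to 1 with a higher change in RD57. Background shares were not counted for fits other than the main one, so whether other genes shifted likewise is not known. The cause of these shifts was not tested. A reversed sign was looked for only in the genes given by identifier, not in the counts of members. In those genes, no value that passed in the main fit changed sign. The call of XLOC_026700 at 21 DPA was also lost with a pseudocount of 1 (adjusted p = 0.0692, limma). Same-numbered libraries gave no sign of deviating together: of 12 correlations of deviations, from -0.33 to 0.27, 1 was over 0.1. Differently numbered pairs ran from -0.35 to 0.34. Pairing by number was thus not seen, though 3 libraries in each group cannot exclude it. With the replicate block, 11 members were higher at 14 DPA, 12 lower at 21 DPA, 69 fell in RD57, 48 fell in RD6 and 14 had a lower change in RD57, and XLOC_026700 had an adjusted p of 0.0609 by limma. Values near 0.5 FPKM lie at the floor of the table, and the reads behind them are not given.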
